A study of Mus musculus with 2 samples.

Results

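A set of 8 genes of MHC class II antigen presentation is described across the cell classes of subcutaneous MC38 tumours, with 1 library from UBD overexpression tumour tissue and 1 library from control tumour tissue. They were chosen by symbol, and all 8 were among the 31053 genes listed for both libraries. MC38 is a mouse colon carcinoma line, and UBD is a small protein related to ubiquitin that is joined to other proteins and marks them for degradation by the proteasome. The tumours were grown under the skin of mice, dissociated and profiled by droplet sequencing of transcript 3' ends, and the labels give no number of animals, no strain or age, no time of harvest and no description of the construct. The labels call both samples xenografts, although MC38 and the host are both mouse.

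The 5 H2 genes lie within the MHC on chromosome 17, with coordinates on GRCm38 from the GENCODE annotation. H2-DMa spans chr17:34119541-34139101 and H2-DMb1 chr17:34153072-34160230, both on the plus strand. H2-Ab1 spans chr17:34257689-34269419 on the plus strand, H2-Aa chr17:34282744-34287823 on the minus strand and H2-Eb1 chr17:34305867-34316674 on the plus strand. Cd74 lies at chr18:60803848-60812652, Ciita at chr16:10480059-10528418 and Ctss at chr3:95526786-95556403, all on the plus strand. All 8 are annotated as protein coding. Their identifiers in the files are ENSMUSG00000036594 for H2-Aa, ENSMUSG00000073421 for H2-Ab1, ENSMUSG00000060586 for H2-Eb1, ENSMUSG00000037649 for H2-DMa, ENSMUSG00000079547 for H2-DMb1, ENSMUSG00000024610 for Cd74, ENSMUSG00000022504 for Ciita and ENSMUSG00000038642 for Ctss. H2-DMb1 has a close paralog, H2-DMb2, and how reads that match both were assigned is not given in the sources used here.

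MHC class II molecules carry peptides from ingested material to the cell surface, where CD4+ T cells read them. H2-Aa and H2-Ab1 encode the α and β chains of the I-A molecule, and H2-Eb1 encodes the β chain of I-E. No listed gene matched H2-Ea or H2-Ea-ps, symbols for the α chain of I-E, so H2-Eb1 is not read as complete I-E. Cd74 encodes the invariant chain, which fills the groove of newly made molecules, and Ctss encodes cathepsin S, a lysosomal protease that trims the invariant chain in dendritic cells and macrophages. H2-DMa and H2-DMb1 encode the H2-DM heterodimer, which removes the last fragment of the invariant chain and loads peptide. Ciita encodes the transactivator that switches on this gene set. Dendritic cells express it steadily and macrophages after interferon gamma.

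Promoters of class II genes hold an X box, bound by RFX factors, and a Y box, bound by NF-Y, at a nearly fixed distance, and CIITA is recruited to the factors bound there. Stretches of 54 bases around this pair are shown for the members whose promoter window held it and, for comparison, from H2-DMb2. Whether the pair bears on the levels in either library was not tested. The sequences are RefSeq promoters on GRCm38.p6, read 5' to 3' on the gene's strand, and capitals mark GATTGG, the core of the Y box, and GNAAC, a core of the X box, where it lies 20 to 35 bases before.
H2-Aa, chr17:34287861-34287914, minus strand: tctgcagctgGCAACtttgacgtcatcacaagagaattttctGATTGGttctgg
H2-Eb1, chr17:34305765-34305818, plus strand: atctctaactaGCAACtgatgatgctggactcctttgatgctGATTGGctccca
H2-DMb1, chr17:34153087-34153140, plus strand: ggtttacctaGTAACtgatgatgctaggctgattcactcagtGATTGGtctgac
H2-DMb2, chr17:34145116-34145169, plus strand: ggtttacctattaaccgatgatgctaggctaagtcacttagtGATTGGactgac

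The gap between the motifs was 27 bases in H2-Aa, 26 in H2-Eb1 and 27 in H2-DMb1, and GATTGG began 49, 60 and 62 bases before the RefSeq start site of H2-Aa, H2-Eb1 and H2-DMb1. For H2-DMb1 that start lies downstream of the GENCODE start given above, so the stretch shown falls inside the GENCODE span of the gene. In H2-DMb2, a gene of the wider pathway list, GATTGG lay 91 bases before the start with no GNAAC at that distance. The windows of 3 other class II genes, H2-Eb2, H2-Oa and H2-Ob, did hold the pair. Both strands of all 32851 promoter windows, each from 250 bases before to 50 after a start, were searched, and the spacing was set after these promoters had been read. GATTGG alone was in 16.1% of windows and the spaced pair in 0.922%. Among the 6 windows of the members, 4 held GATTGG, including 1 of 2 windows of H2-DMa, and 3 held the pair. Because the spacing was set with these promoters known, the pair among the members is described and no enrichment is read. The Ctss window held neither. H2-Ab1, Cd74 and Ciita had no matching promoter entry.

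The UBD library gave 14158 barcodes and 204267192 UMIs (unique molecular identifiers, 1 per captured transcript), and the control library 14890 barcodes and 173973178 UMIs. Filters and removal of predicted doublets left 13057 UBD cells with a median depth of 12186 UMIs and 13823 control cells with a median depth of 4334. The libraries shared 71 barcodes, 0.501% of the UBD barcodes. Transcripts of mouse Ubd were at 1.16 CPM (a gene's share of all UMIs in a set of cells, scaled to a fixed total) in tumour cells of the UBD library (183 UMIs) and 0.296 in those of the control library (33 UMIs). In macrophages Ubd was at 0.449 CPM (5 UMIs) in the UBD and 1.28 (16 UMIs) in the control library, the other way round. Whether the construct's transcript is captured by these counts is not known. With 1 library per group there is no replicate and no test: all intervals are 95% and cover counting error only, and every difference is one between these 2 libraries.

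Cells were clustered without the members and other class II genes, and classes were named from marker genes, so each class is "like" its name. Macrophage-like cells (C1qa, C1qb, C1qc) numbered 1881 in the UBD and 3212 in the control library, and monocyte-like cells (Ly6c2, Plac8) 434 and 1511. Mature dendritic-like cells (Ccr7, Fscn1) numbered 71 and 89, and the other dendritic-like cells of the same cluster 178 and 331. Osteoclast-like cells (Acp5, Ctsk) numbered 934 and 117. Tumour cells were the clusters with Cdkn2a above 500 CPM and below 5 summed CPM of Y-linked genes. They numbered 8292 and 4486 cells and serve as the background. Names are given without "like" from here on. Flt3, the defining gene of conventional dendritic cells, was sparse, at 32.6 CPM in the other dendritic cells of the UBD library and 37.4 in those of the control library, against 0.359 and 0.399 in macrophages and 104.5 and 93.5 in mature dendritic cells. Ly6c2 was at 455 CPM in UBD and 3034 in control monocytes, and at 71.0 in UBD and 1348 in control other dendritic cells. The UBD monocytes thus held less of it than control other dendritic cells, and its part in the results was not tested. Clusters that could not be named held 3.22% of UBD and 19.1% of control cells.

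The 3 chains were most abundant in the other dendritic cells, followed by mature dendritic cells and macrophages, then monocytes, with osteoclasts far lower and tumour cells lowest. Levels are CPM over all UMIs of a class, and because a 3' count is not scaled by transcript length, each gene is compared across classes and not with another gene. H2-Aa was at 6255 CPM in the other dendritic cells of the UBD library and 7981 in those of the control library. Mature dendritic cells had 2806 and 3447, macrophages 2639 and 1639, monocytes 697 and 278, osteoclasts 69.6 and 33.2, and tumour cells 7.81 and 15.9, in the UBD and control library in each case. H2-Ab1, its partner chain, ran from 7487 in UBD and 9170 in control other dendritic cells to 8.48 and 15.3 in tumour cells. H2-Eb1 ran from 5726 and 7263 to 7.45 and 13.3 over the same classes.

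Summed over the 3 chains, the order of classes differed between the libraries at 1 place. Other dendritic cells had 19468 (19174 to 19765) CPM in the UBD library and 24414 (24162 to 24667) in the control library. Macrophages of the UBD library, at 7784 (7732 to 7836), could not be told apart from mature dendritic cells of that library, at 7649 (7309 to 8001). In the control library macrophages, at 4827 (4788 to 4865), lay below mature dendritic cells, at 9028 (8749 to 9314). Monocytes followed at 1886 in UBD and 805 in control cells, then osteoclasts at 225 and 129. All other neighbours in the order had intervals that did not overlap. Among the other dendritic cells, the 20 UBD and 45 control cells with a Flt3 UMI had 19108 and 20010 CPM of the chains, against 19520 and 25281 in those without, so the class level did not rest on the cells with Flt3 alone.

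**Figure D1:**
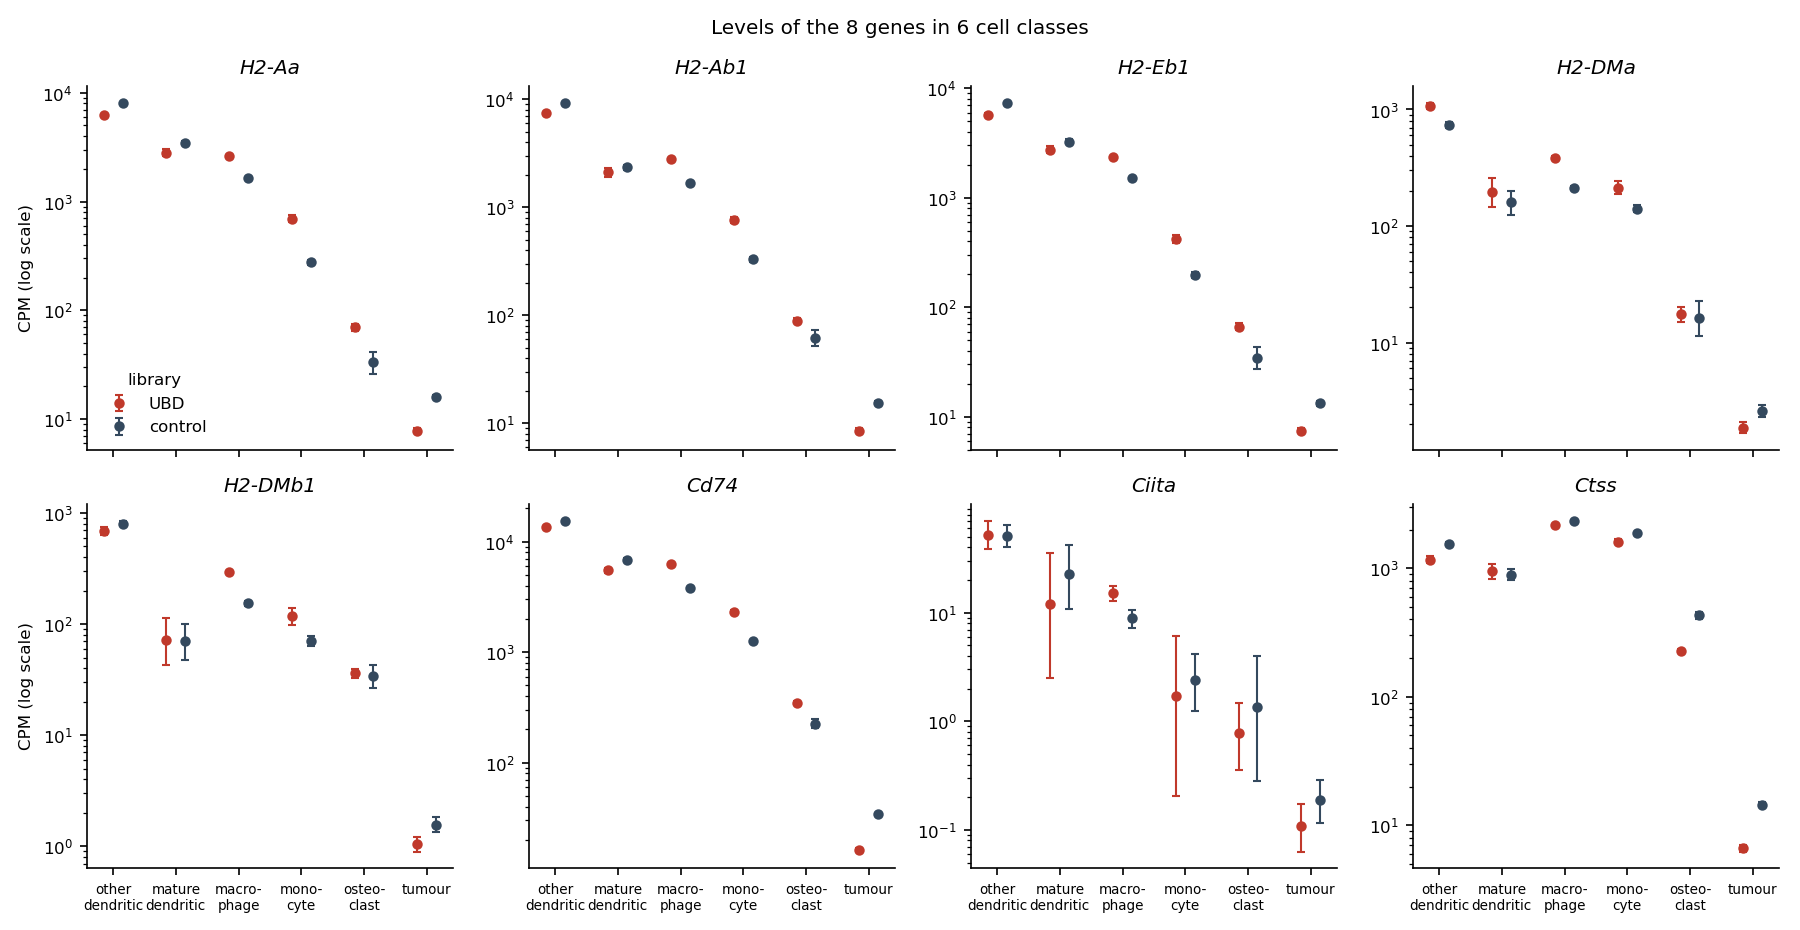
Level of each of the 8 genes (CPM, log scale) in 6 cell classes, with UBD in red left of control in dark blue. Points are 1 library each and bars are exact Poisson intervals. The chains, Cd74 and Ciita fall from dendritic cells to tumour cells, while Ctss is highest in macrophages, at 2171 in UBD and 2311 in control cells.

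The invariant chain followed the class II chains from class to class. Cd74 was at 13518 and 15224 CPM in UBD and control other dendritic cells, 5511 and 6883 in mature dendritic cells, 6292 and 3844 in macrophages, 2304 and 1261 in monocytes, 350 and 225 in osteoclasts and 16.2 and 34.0 in tumour cells. H2-DMa and H2-DMb1, the peptide loaders, were also highest in other dendritic cells. H2-DMa was at 1075 CPM there in the UBD library and 743 in the control library, against 386 and 212 in macrophages. H2-DMb1 was at 692 and 802 in UBD and control other dendritic cells and 292 and 153 in macrophages. Mature dendritic cells had H2-DMa at 197 and 160 and H2-DMb1 at 72.3 and 70.7, below UBD and control macrophages in both genes.

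Ciita, the transactivator, was the sparsest member and was also highest in other dendritic cells. It had 45 UMIs (52.4 CPM) in UBD and 75 (51.0 CPM) in control other dendritic cells, and 168 (15.1 CPM) and 111 (8.85 CPM) in macrophages. Mature dendritic cells gave 3 and 10 Ciita UMIs, monocytes 2 and 12, and osteoclasts 9 and 3, so no ratio is read there.

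Ctss stood apart, being highest in macrophages and monocytes. It was at 2171 CPM in UBD and 2311 in control macrophages, and at 1606 and 1864 in monocytes. Other dendritic cells had 1161 and 1542 and mature dendritic cells 945 and 894. Osteoclasts had 228 and 432 and tumour cells 6.61 and 14.5. The intervals of macrophages and the other dendritic cells did not overlap in either library.

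Set against the chains of the same cells, the processing genes divided the classes further. H2-DM gave 3.52 UMIs per 100 chain UMIs in UBD and 2.55 in control mature dendritic cells, 9.07 and 6.33 in other dendritic cells, and 8.71 and 7.56 in macrophages. Mature dendritic cells were thus the lowest of the 5 host classes in both libraries. In monocytes the H2-DM value was 17.5 in UBD and 26.3 in control cells, and in osteoclasts 23.7 and 38.9. Ctss gave 5.96 UMIs per 100 chain UMIs in UBD and 6.32 in control other dendritic cells, 27.9 and 47.9 in macrophages, 85.2 and 232 in monocytes and 101 and 333 in osteoclasts. Cells low in chains therefore still held Ctss. Within I-A, H2-Ab1 gave 74.8 UMIs per 100 H2-Aa UMIs in UBD and 67.8 in control mature dendritic cells, against 120 and 115 in other dendritic cells and 106 and 103 in macrophages.

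**Figure D2:**
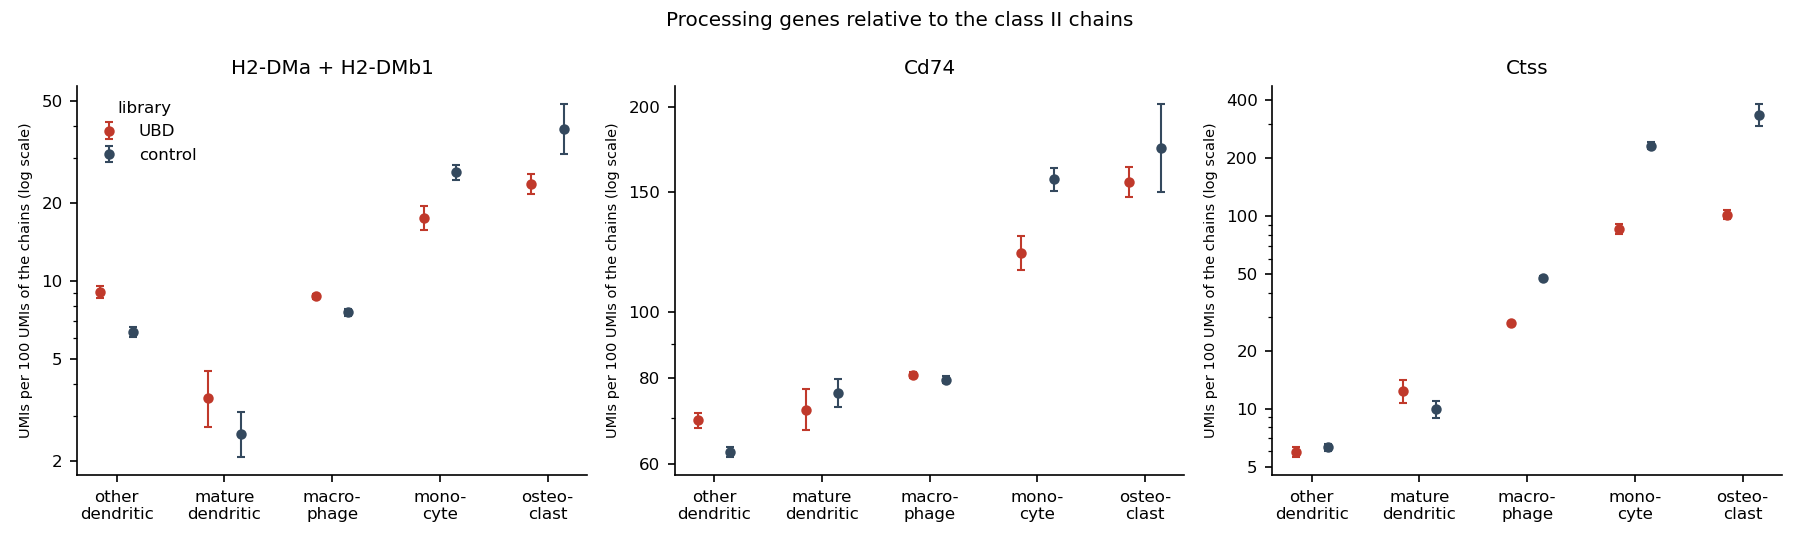
UMIs of H2-DM, Cd74 and Ctss per 100 UMIs of the 3 chains (log scale) in 5 host classes, UBD in red left of control in dark blue, with exact conditional binomial intervals. Mature dendritic cells are lowest for H2-DM, at 3.52 in UBD and 2.55 in control cells, and Ctss climbs from other dendritic cells to osteoclasts in both libraries.

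In tumour cells the members stood at a small share of their macrophage level, as did macrophage genes that tumour cells lack. The summed chains in tumour cells were 0.305% of the macrophage level in the UBD library and 0.923% in the control library. C1qa, a complement gene of macrophages, was at 0.237% in UBD and 0.424% in control tumour cells on the same measure, and Lyz2 at 0.252% and 0.828%. Single members ran from 0.258% for Cd74 to 0.716% for Ciita in UBD tumour cells. In control tumour cells they ran from 0.626% for Ctss to 2.13% for Ciita. Every member thus lay above C1qa in both libraries, with Ciita resting on 17 UBD and 21 control UMIs. At a depth of 1000 UMIs, 3 of 8119 UBD tumour cells (0.0370%) and 4 of 4408 control tumour cells (0.0907%) had 5 or more chain UMIs. The unnamed cluster 3 had Cdkn2a at 2063 CPM but Y-linked genes at 9.09, above the limit of 5, so it was left out of the tumour cells. Its chains were at 259 CPM in UBD and 336 in control cells, against 23.7 and 44.5 in tumour cells. No expression by tumour cells is read from these values.

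Macrophages of the UBD library had higher levels of 7 of the 8 genes than those of the control library. H2-DMb1 had the largest ratio, 1.90 (1.80 to 2.02), and H2-DMa had 1.83 (1.74 to 1.92). H2-Ab1 was 1.66-fold, Cd74 1.64-fold, H2-Aa 1.61-fold and H2-Eb1 1.57-fold higher in UBD macrophages, and Ciita 1.70-fold (1.33 to 2.19). Ctss had a ratio of 0.939 (0.923 to 0.955), and its log2 ratio turned positive, at 0.12, with every cell weighted equally. Of the 11541 genes with at least 20 summed UMIs in macrophages, 13.7% were at least 1.5-fold higher in the UBD library and 21.6% at least 1.5-fold lower. All 8 members had that many UMIs, 7 were at least 1.5-fold higher and none lower. Their median log2 ratio was 0.72, against -0.07 over all those genes. With other class boundaries or weights the ratio of the summed chains, 1.61 (1.60 to 1.63), ran from 1.51 to 2.003.

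Other features of the macrophages differed between the libraries too, and their part in the result was not tested. The median macrophage had 5465 UMIs in the UBD and 3220.5 in the control library. Most UBD macrophages, 1704, were in cluster 5, led by Arg1 and C1q genes, and most control macrophages, 3013, in cluster 0, led by Pf4, Lst1 and Aif1. Ly6c2 was at 21.4 CPM in UBD and 1110 in control macrophages, and the summed monocyte markers at 316 and 2388. Gm42418, a gene that overlaps ribosomal RNA, was at 2912 in UBD and 12148 in control macrophages. The summed dendritic cell lists were low in macrophages of both libraries, at 62.2 in UBD and 85.8 in control cells for mature and 187 and 283 for conventional dendritic cells, with Flt3 near 0.

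**Figure D3:**
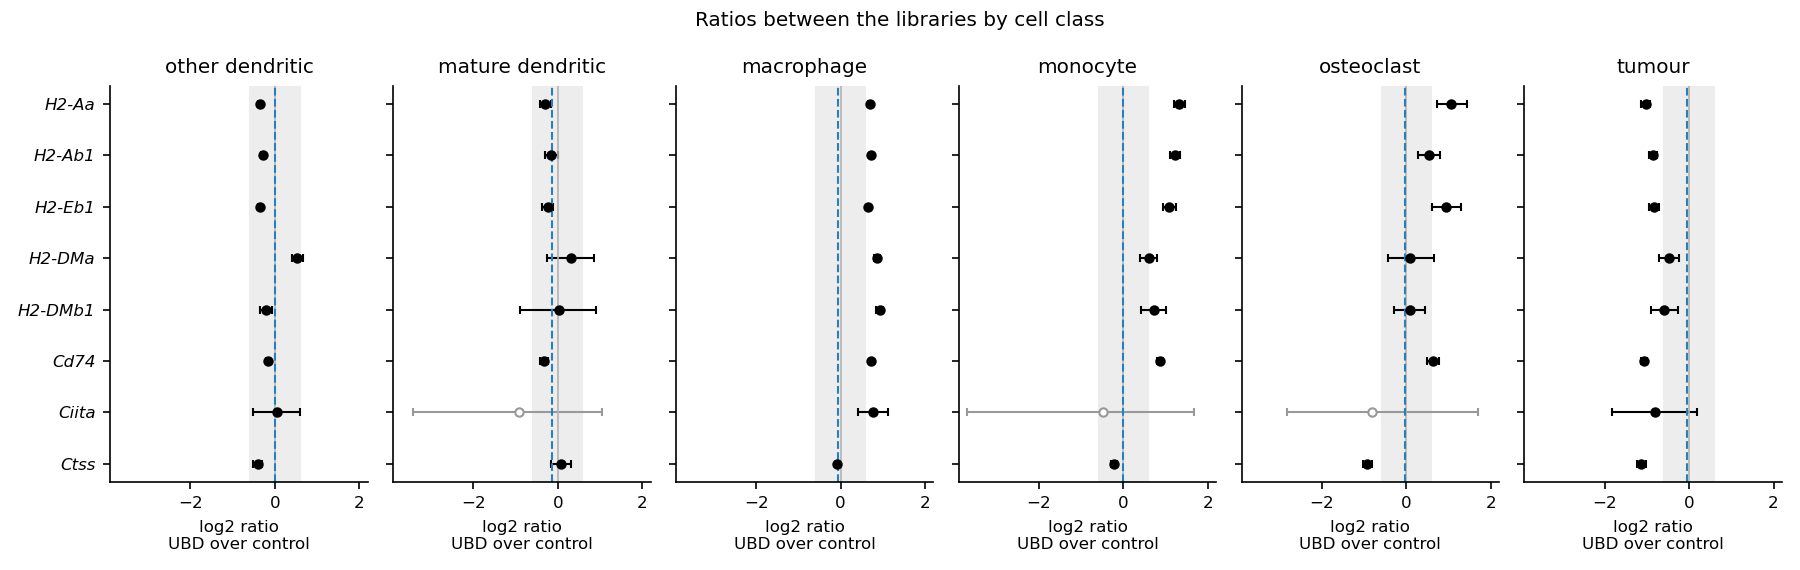
Log2 ratio of UBD over control for each gene in 6 cell classes, with exact conditional binomial intervals. Grey bands mark ratios under 1.5-fold, blue dashed lines the median of all measured genes and open grey points genes with under 20 summed UMIs. In macrophages 7 of 8 genes lie right of the band and Ctss lies inside it.

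Within the 2 large macrophage clusters the chains were again higher in UBD cells. In cluster 0 the chains were at 9518 CPM in 59 UBD cells and 5033 in 3013 control cells, a ratio of 1.89 (1.81 to 1.97). In cluster 5 they were at 8283 in 1704 UBD cells and 2901 in 159 control cells, a ratio of 2.86 (2.75 to 2.96). Counts of members at least 1.5-fold higher were 6 of 8 in cluster 0, where 16.5% of genes were higher and 31.7% lower, and 7 of 8 in cluster 5, where 10.2% were higher and 20% lower. Ctss had a ratio of 0.93 in cluster 0 and 1.29 in cluster 5. Both chain ratios were larger than the pooled ratio of 1.61.

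The smallest macrophage cluster went the other way. Cluster 21, led by Lyve1, Fcna and Cd209f, which are known from tissue-resident macrophages, held 118 UBD and 40 control cells. Its chains were at 849 CPM in UBD and 2731 in control cells, a ratio of 0.311 (0.275 to 0.352). All 7 members with at least 20 summed UMIs were at least 1.5-fold lower in UBD cells, where 20.3% of genes were lower and 31.7% higher, from Cd74 at 0.266 to Ctss at 0.657. Ciita gave 0 UMIs in UBD and 4 in control cells. C1qa was at 4991 in UBD and 6099 in control cells of this cluster, Lyve1 at 952 and 451, and Flt3 at 0 in both. Cdkn2a was at 287 in UBD and 32.2 in control cells, and Gm42418 at 4477 and 19142. Their part in the difference was not tested.

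Splitting the macrophages into 6 subclusters showed where the chains were high. Subcluster 3, led by the interferon response genes Oasl1, Ifit3 and Rsad2, had the highest chain level in both libraries, 12490 CPM in 15 UBD cells and 9220 in 656 control cells. Subcluster 0, led by Fn1, Mmp12 and Arg1, had 9078 in 1444 UBD and 4942 in 88 control cells. Subcluster 1, led by Ppbp and Pf4, had 5671 in 58 UBD and 3079 in 1257 control cells. The cycling cells of subcluster 4, led by histone genes and Mki67, had 5669 in 234 UBD and 2660 in 115 control cells. Subcluster 5, led by Lyve1, had 899 in 125 UBD and 2598 in 45 control cells, the lowest level in the UBD library and within counting error of the cycling cells in the control library. Subcluster 2 was led by Slfn4, Ly6c2 and interferon response genes, among them Ifit1bl1, Mx1 and Isg15. Its chains were at 6440 CPM (4810 to 8446) in only 5 UBD cells and 3800 in 1051 control cells. Over both libraries Ifit1 was at 386 CPM in subcluster 2 and 218 in subcluster 3. Interferon response genes thus led subclusters with high and with lower chain levels. Ctss varied less, from 831 in the Lyve1 cells to 2490 in the Fn1 cells of the UBD library, and from 1412 to 2998 over the subclusters of the control library.

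**Figure D4:**
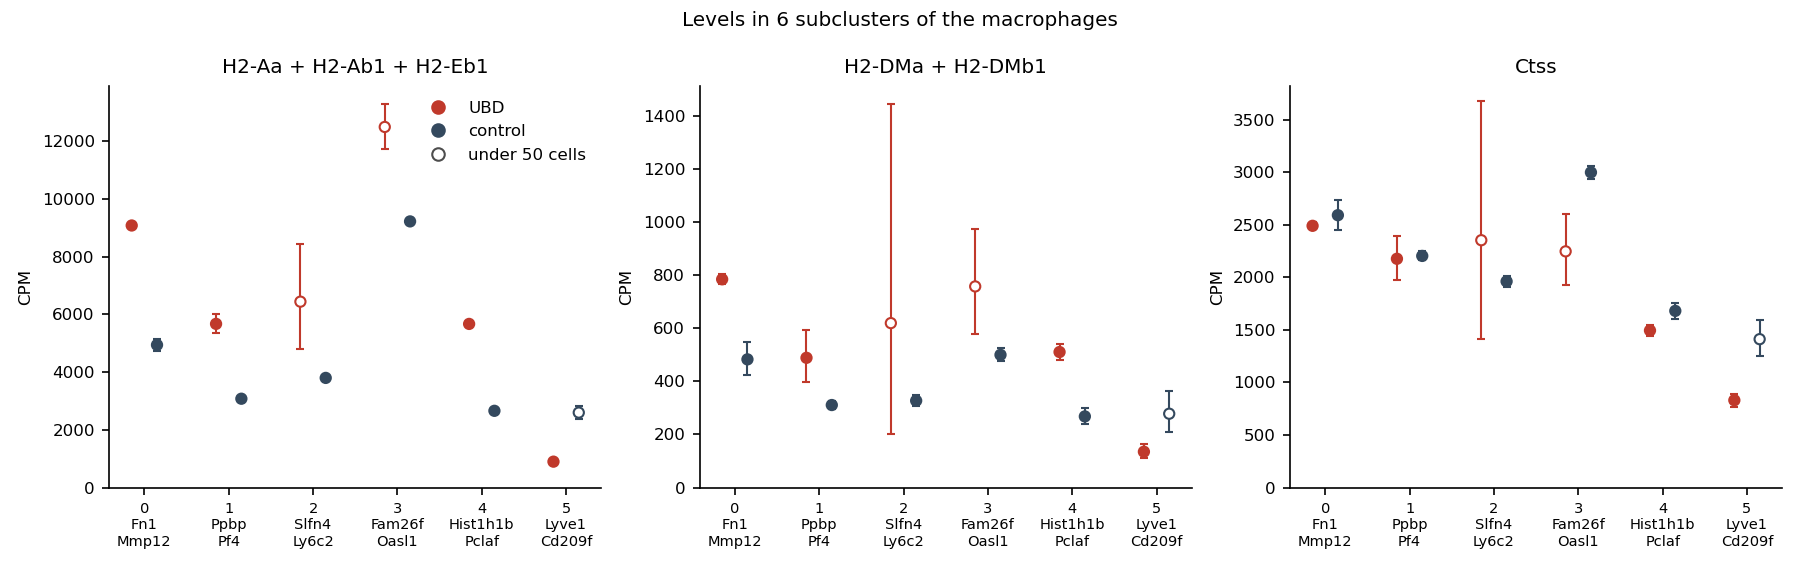
Levels of the summed chains, summed H2-DM and Ctss (CPM) in 6 macrophage subclusters named by 2 leading genes, UBD in red left of control in dark blue, with exact Poisson intervals. Open points rest on under 50 cells. The chains are higher in UBD cells in subclusters 0 to 4 and lower in the Lyve1 subcluster.

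The counts per cell show how the chains were spread. Each macrophage was thinned to 1000 UMIs, which left out 28 UBD and 143 control cells with fewer. Of 1853 UBD macrophages 33.4% (31.2 to 35.6) had no chain UMI, against 56.1% (54.3 to 57.9) of 3069 control macrophages. Without thinning the shares were 17.5% and 43.2%. The median was 3 chain UMIs in UBD and 0 in control macrophages, the mean 8.47 and 4.65, and the highest cell had 53 and 60. The 188 UBD and 321 control macrophages with the most chain UMIs, before thinning, held 40.7% and 67.7% of the chain UMIs of the class. The variance was 12.8 times the mean in UBD and 17.2 times in control cells. On the same cells it was 4.66 and 7.05 times for the summed C1q genes. This measure grows when genes that move together are summed, so Ctss is set beside single chains. Single chains had 4.95 to 5.13 times in UBD and 6.37 to 6.77 times in control cells, and Ctss 1.74 and 1.67 times.

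The share of macrophages with chain UMIs differed more between the libraries than the counts within those cells. Part of this contrast is built in, since the mean of cells at or above a limit cannot fall below that limit. With at least 1 chain UMI the shares were 66.6% of UBD and 43.9% of control macrophages and the means 12.7 and 10.6 UMIs. Macrophages with 5 or more chain UMIs made up 45.9% (43.6 to 48.2) of UBD and 25.6% (24.04 to 27.2) of control macrophages. Within them the mean was 17.5 chain UMIs in UBD and 16.9 in control cells (SD between cells 9.10 and 10.4), and the median 16 and 14. The limit was set after the values were seen, and 10.8% of UBD and 7.92% of control macrophages lay at 3 to 6 UMIs, near it. With the limit at 3 UMIs the shares were 52.5% in UBD and 29.9% in control macrophages and the means above it 15.8 and 14.97. At 10 UMIs the shares were 36.0% and 17.6% and the means 20.5 and 21.5. The same limit of 5 UMIs was reached by 88.6% of UBD and 89.5% of control other dendritic cells, 42.9% and 42.0% of mature dendritic cells and 15.5% and 5.06% of monocytes. Summed C1q averaged 12.4 UMIs in UBD macrophages with 5 or more chain UMIs and 11.99 in those with fewer, and 9.13 and 7.80 in the same sets of control macrophages.

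**Figure D5:**
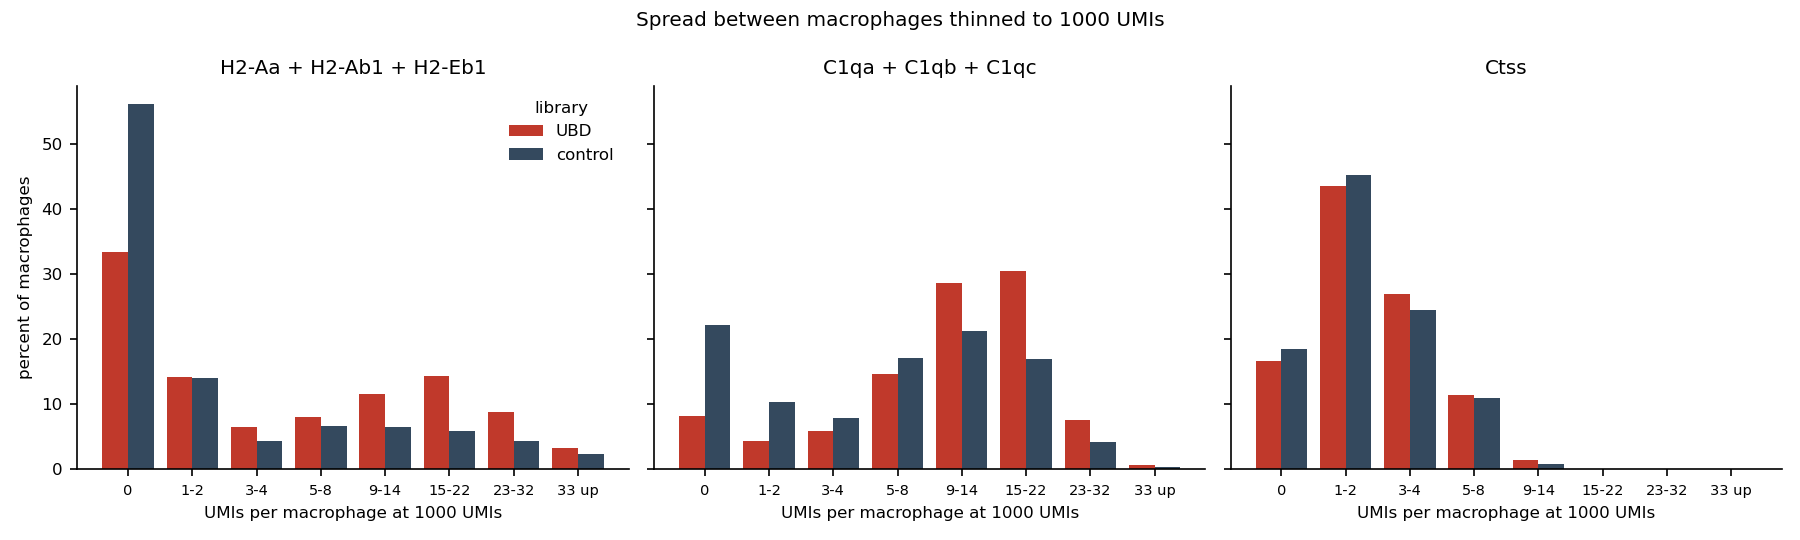
Percent of macrophages by UMIs of the 3 chains, of the 3 C1q genes and of Ctss after thinning to 1000 UMIs per cell, UBD in red left of control in dark blue. Cells with no chain UMI make up 33.4% of UBD and 56.1% of control macrophages, and the rest extend past 33 UMIs, while Ctss stays in a narrow range in both libraries.

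The chains moved together from cell to cell. Across macrophages thinned to 1000 UMIs, which share library and depth, the Pearson correlation between pairs of chains was 0.78 in 1853 UBD cells and 0.81 to 0.82 in 3069 control cells. Against the summed chains it was 0.87 for Cd74 in UBD and 0.88 in control cells, 0.40 and 0.27 for H2-DMa, 0.43 and 0.39 for H2-DMb1, 0.24 and 0.21 for Ctss and 0.18 and 0.14 for Ciita. The low counts of H2-DM and Ciita limit these values. Summed C1q had 0.06 in UBD and 0.11 in control cells. The 6 subclusters took up 4.72% of the variance of the summed chains in UBD and 8.90% in control macrophages. The rest lay between cells of the same subcluster and includes counting error at 1000 UMIs. Subclusters were made without the class II genes, so a low share for the chains is partly built in. The same share was 1.40% and 25.02% for summed C1q, whose genes were not left out, so the shares are not compared.

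Macrophages at the ends of the chain range differed in other genes as well. The upper cells, taken as the top 25% with ties, began at 15 chain UMIs in the UBD library (489 cells) and at 5 in the control library (785 cells), and the lower end was all macrophages with no chain UMI, 618 and 1722 cells. The 3 chains set these groups, so they are no finding. H2-DMa was at 835 CPM in upper and 115 in lower UBD macrophages, and 426 and 120 in those of the control library. Ciita was at 45.8 and 0.252 in UBD and 26.1 and 1.02 in control macrophages, with very few UMIs in the lower cells. Ctss was at 2886 and 1683 in UBD and 2946 and 2032 in control macrophages, so it was higher in chain-rich cells of both libraries although its pooled level was not.

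Of 2330 genes measured in both libraries, 47 were at least 1.5-fold higher and 70 at least 1.5-fold lower in the upper cells of both. Cells of the Lyve1 cluster 21 made up 1.02% of upper and 12.3% of lower UBD macrophages and 1.40% and 1.10% of those of the control library, and their part in these differences was not tested. The 8 with the largest ratios included the receptor kinase Axl (3.70-fold in UBD and 3.31-fold in control macrophages), the aspartic protease Napsa (6.30 and 3.23), the decoy interleukin receptor Il1r2 (12.4 and 2.62) and the chemokines Cxcl9 (3.74 and 2.84) and Ccl5 (4.53 and 2.39). Grasp, Cyp4f18 and Bcl2a1d completed the set. Cxcl9, which interferon gamma induces, was at 1269 CPM in upper and 340 in lower UBD macrophages, and 342 and 120 in those of the control library. The 8 lowest included the platelet factor gene Pf4, at 509 in upper and 2041 in lower UBD macrophages and 567 and 5422 in those of the control library. Folr2, the folate receptor of resident macrophages, was 5.87-fold lower in upper UBD and 3.86-fold lower in upper control macrophages, and the haem oxygenase gene Hmox1 3.59-fold and 2.71-fold. Ctsl, a protease that also cuts the invariant chain, was 2.82-fold lower in upper UBD and 2.95-fold lower in upper control macrophages, the opposite of Ctss. Gja1, Cbr2, F13a1 and Tspan3 completed the 8.

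In monocytes the chains were higher in the UBD library with the main classes, but the direction changed with how the classes were drawn. Summed chains were at 1886 CPM in 434 UBD and 805 in 1511 control cells, a ratio of 2.34 (2.22 to 2.47). Ly6c2 was at 455 CPM in those UBD cells and 3034 in those control cells, and its part in the ratio was not tested. Of 7 members measured, 6 were at least 1.5-fold higher and none lower, where 15% of genes were higher and 18.5% lower, and Ctss had a ratio of 0.861. At a finer clustering the chain ratio was 0.755, with 2256 CPM in 457 UBD and 2987 in 2223 control cells. With cells gated on marker genes it was 0.579, and at a coarser clustering 3.27. No direction in monocytes is read from these data. Macrophages and monocytes pooled, a choice made after seeing the data, had a log2 ratio of 0.97 for the summed chains.

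Dendritic cells of the UBD library had chain levels below those of the control library with the main classes, and the difference from macrophages was not tested. C1qa was at 398 CPM in UBD and 110 in control other dendritic cells and at 788 and 292 in mature dendritic cells. The summed macrophage markers were at 1443 and 478 in other dendritic and 3324 and 1778 in mature dendritic cells, and the summed monocyte markers at 1196 and 4255 in other dendritic cells. Their part in the results was not tested. In the other dendritic cells the chains had a ratio of 0.797 (0.783 to 0.812), Cd74 0.888, H2-DMb1 0.862 and Ctss 0.753, while H2-DMa had 1.45 (1.32 to 1.58). None of the 8 members reached 1.5-fold either way, where 17.4% of genes were at least 1.5-fold higher and 19.6% lower. Mature dendritic cells had a chain ratio of 0.847 (0.802 to 0.895), with none of 7 measured members past 1.5-fold, against 11% of genes higher and 23.2% lower. With other class boundaries the chain ratio of mature dendritic cells ran from 0.562 to 1.19 and that of the other dendritic cells from 0.791 to 1.06. The subclusters of the other dendritic cells differed among themselves. Cells led by Clec4n and Mgl2 had 26598 chain CPM in 85 UBD and 30676 in 98 control cells. Cells that held Flt3, Xcr1 and Cd209a had 18182 in 37 UBD and 16936 in 107 control cells. Cells led by Retnla, with cycling genes, had 13059 in 53 UBD and 19295 in 8 control cells. Cells led by Ifit genes and Cxcl10, the most numerous in the control library, had 19117 in 3 UBD and 26161 in 118 control cells. The subclusters thus held different shares of the class in each library, and their part in the ratio of 0.797 was not tested.

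Osteoclasts and tumour cells held low levels, with opposite ratios. In osteoclasts the chains were at 225 CPM in 934 UBD and 129 in 117 control cells, a ratio of 1.74 (1.54 to 1.97), and Ctss had a ratio of 0.528 (0.490 to 0.570). Of 7 members measured, 3 were at least 1.5-fold higher and 1 lower, where 9.39% and 13.0% of genes were. The chain ratio was 0.934 with gates on marker genes. Among tumour cells the UBD library was lower by at least 1.5-fold for 6 of 8 members, where 21.5% of genes were lower and 9.28% higher, and the chain ratio was 0.533 (0.511 to 0.556). These are background levels, as described above for tumour cells.

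A fixed list of 34 further genes of the pathway, set with earlier results of these data known was counted in the same way. In macrophages 30 were measured, of which 3 were at least 1.5-fold higher and 8 lower in UBD cells, near the 13.7% higher and 21.6% lower of all genes. Their median log2 ratio was -0.27. The 3 higher ones were the class II genes H2-DMb2, at 9.61 CPM in UBD and 3.67 in control macrophages, H2-Ob at 2.25 and 0.957, and H2-Oa at 1.53 and 0.798, where H2-Oa and H2-Ob encode an inhibitor of H2-DM. The interval of the H2-Oa ratio, 0.828 to 4.68, includes 1. Of 8 proteases and inhibitors measured none passed 1.5-fold, from Ctsb at 0.767 to Ctsc at 1.43, with Ctsl at 1.39 and the cysteine protease inhibitor Cst3 at 0.832.

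Of 11 transcription factors that act at class II or Ciita promoters or upstream of them, none was at least 1.5-fold higher in UBD macrophages and 4 were at least 1.5-fold lower, where 13.7% of all genes were higher and 21.6% lower. Nfyb had the highest ratio, 1.32 (1.08 to 1.61). Irf1, which interferon gamma induces and which acts at a Ciita promoter, was at 62.9 CPM in UBD and 162 in control macrophages, a ratio of 0.389 (0.357 to 0.424). Cxcl9, which interferon gamma also induces, went the other way, at 739 CPM in UBD and 197 in control macrophages. Rfxank had a ratio of 0.578, Nfya 0.593, Nfyc 0.631 and Rfx5 1.02 (0.645 to 1.61). Of 6 genes of turnover and costimulation 4 were at least 1.5-fold lower and none higher, against the same 21.6% and 13.7% of all genes. Cd86 was at 85.4 in UBD and 155 in control macrophages, Cd40 at 37.7 and 72.8, Cd80 at 12.3 and 21.1, and Cd83, which slows the removal of class II from the surface, at 149 and 262. The ubiquitin ligase gene March1, which drives that removal, had a ratio of 0.699. Ifngr1 and Ifngr2 had ratios of 0.941 and 0.725.

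Over 19 units, each a class in 1 library with at least 50 cells, some genes other than the members had a pattern close to that of the chains. By Pearson correlation of log2(CPM + 1), the 6 closest of 5458 genes were Necap2 (0.94), Ebi3 (0.93), Ncf1 (0.93), Cd86 (0.92), Ly86 (0.92) and Cxcl16 (0.92). The members ran from 0.87 for Ctss to 0.94 for H2-DMa and Ciita and 0.98 for Cd74. Cd86 was highest in control other dendritic cells, at 278 CPM. It was nonetheless lower in UBD than in control macrophages, so likeness across classes was not likeness between libraries.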

How the data were processed

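Single-cell RNA was measured in 2 libraries. The values are UMI counts per gene and barcode, deposited by the authors as 1 sparse matrix per library; Cell Ranger, STAR and mm10 are named in the submitters' processing notes, and software version 3.1.0 in the matrix headers, per the file headers. No other setting of that processing is known from the sources used.

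Barcodes with at least 200 genes, 500 UMIs and at most 20% mitochondrial UMIs were kept, and doublets predicted by Scrublet (562 UBD, 4.13%, and 530 control, 3.69%) removed. Cells were clustered together with scanpy 1.11.5 and leidenalg 0.10.2 (2000 variable genes without class II genes, 30 components, 15 neighbours, resolution 1.0, seed 0), with no batch correction. Clusters were named from marker lists, with thresholds set after seeing the data: tumour below 5 summed CPM of 4 Y-linked genes and Cdkn2a above 500, host above 40. Members, lists and comparisons were chosen with earlier results of these data known.

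UMIs were summed per class and scaled to CPM. Poisson, conditional binomial and Clopper-Pearson intervals are exact. No test was run, since each group is 1 library. Ratios were read for genes with at least 20 summed UMIs, and the ratio intervals were tested on simulated data. Named genes were all members, the pathway list, the 6 genes most like the chains and the 8 highest and 8 lowest between ends of the macrophage range, with at least 50 CPM. For those ends, genes needed 1.5-fold the same way in both libraries and were ranked by the smaller ratio. Promoter motifs were searched in RefSeq windows. Genes of the pathway list with no matching symbol were not analysed here. The value of 1 gene of that list is not reported here.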

Additional observations from a re-analysis of the deposited data

Results flagged for a closer look

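Ratios of the summed chains between UBD and control cells pointed in opposite directions in several pairs of classes, and none of these differences was tested, since each rests on 1 library per group. The log2 ratio in macrophages exceeded that in other dendritic cells by 1.02, that in mature dendritic cells by 0.93 and that in tumour cells, where levels were at background, by 1.60. The log2 ratio in monocytes exceeded that in other dendritic cells by 1.55, and the monocyte direction changed with how the classes were drawn. The opposite direction was not stable in dendritic cells either. The chain ratio of mature dendritic cells was 1.19 with doublets kept and 1.02 with class II genes used for clustering, and that of other dendritic cells 1.06 with marker gates.

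Among macrophage clusters, the log2 ratio of cluster 5 exceeded that of the Lyve1 cluster 21 by 3.20, and that of cluster 0 exceeded it by 2.60. Cluster 21 held 118 UBD and 40 control cells, and its chain-bearing cells, with 5 or more chain UMIs at 1000 UMIs, were 9 of 113 UBD cells and 11 of 37 control cells, or 7.96% (3.71 to 14.6) and 29.7% (15.9 to 47.0).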

How the results depend on the processing

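The log2 ratio of the summed chains in macrophages, 0.69, stayed positive under every alternative run. It was 0.65 with a stricter cell filter, 0.62 with doublets kept, 0.84 at resolution 0.5, 0.60 with class II genes used for clustering, 1.00 with marker gates, 0.92 with every cell weighted equally, 0.74 without macrophages that held a Cdkn2a UMI, 0.75 with a median of ratios size factor, 1.22 as the mean of within-cluster values and, chosen after seeing the data, 0.97 with monocytes pooled in. The median of the members, 0.72, was 0.65 with doublets kept, 0.86 at resolution 0.5, 0.63 with class II genes used for clustering, 1.00 with gates, 0.93 with equal weights, 0.78 with the size factor, 1.17 within clusters and 0.96 with monocytes. Of 63 alternative values for the 7 higher members, all 63 were above 0 and 61 at or above 1.5-fold. These 7 were picked by their main ratios and every run reused the same 2 libraries, so the count is no independent support. The matching share over all genes was not counted.

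The share of macrophages without a chain UMI, 33.4% in UBD and 56.1% in control cells, was 36.8% and 61.6% at resolution 0.5, 40.1% and 63.2% at 500 UMIs, 27.6% and 48.3% at 2000 UMIs and 38.4% and 63.3% with monocytes. At resolution 2.0 it was 35.6% and 58.0%, and with class II genes used for clustering 35.8% in UBD cells. Variance over mean was 6.91 and 8.92 at 500 UMIs and 24.8 and 33.3 at 2000 UMIs, since it grows with depth. Of 96 levels, 78 to 93 stayed within 1.5 times. The order of classes held except that mature dendritic cells passed macrophages of the UBD library with doublets kept and with class II genes used for clustering.

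Among single log2 ratios of at least 1.5-fold, 13 values reversed, and the cause was not tested. In monocytes at resolution 2.0 they were -0.34 for H2-Aa, -0.26 for H2-Ab1, -0.71 for H2-Eb1, -0.024 for H2-DMb1 and -0.0053 for Cd74. With gates they were -0.93, -0.59, -0.91 and -0.27 for those 4 H2 genes in that order, -0.0021 for H2-DMa and -0.71 for Cd74, and in osteoclasts -0.11 for H2-Aa and -0.015 for H2-Eb1. Among ratios under 1.5-fold a further 35 values changed sign, 17 of them in mature dendritic cells, where H2-Aa, H2-Ab1, H2-Eb1 and Cd74 were at 0.15, 0.41, 0.24 and 0.18 with doublets kept, and 2 in macrophages, where Ctss was at 0.12 with equal weights and 0.13 within clusters. No paired analysis was possible because each group is 1 library, and no replicate could be left out. Depth limits Ciita and H2-DM in mature dendritic cells.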

Other observations

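Among T-like cells the members were also detected, in few cells. The summed chains were at 1826 CPM in 583 UBD and 570 in 491 control T cells, and the 58 UBD and 49 control cells with the most held 96.8% and 94.5% of the chain UMIs. At 1000 UMIs, 35 of 549 UBD T cells (6.38%) and 6 of 467 control T cells (1.28%) had 5 or more chain UMIs. C1qa was at 648 CPM in UBD and 51.8 in control T cells, and T cells with 5 or more chain UMIs averaged 5.17 C1q UMIs in the UBD and 0.333 in the control library.

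Several unnamed clusters held the chains. Cluster 19, with a median of 731 UMIs per cell in the UBD and 714.5 in the control library, had 7891 chain CPM in 67 UBD and 5986 in 170 control cells. Cluster 22, led by Igkc, Ly6d and Siglech, had 5040 in 52 UBD and 1639 in 51 control cells. Cluster 18, led by S100a9, S100a8 and mast cell protease genes, had 3225 in 31 UBD and 289 in 220 control cells. The largest, cluster 3, had 259 in 81 UBD and 336 in 2196 control cells, with Cdkn2a at 2063 CPM over both libraries.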
